A study of Homo sapiens with 26 samples.

Results

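MicroRNA (miRNA) genes were followed through APEX-seq libraries of HEK293T cells, which sample RNA close to the plasma membrane. The members were selected on their level, as the rows of the deposited log2 FPKM table (FPKM counts fragments per length of exon and per depth of the library) that GENCODE 29 annotates as miRNA and that had a log2 value above 0 in at least 3 of the 26 libraries. Of 25745 rows in the table, 256 were miRNA genes and all of them met that threshold; with MIR5087 set aside by the rule, 255 remained, out of 1881 miRNA genes in GENCODE 29. That they were detected is therefore not a result. The members nearest to the threshold were MIR3171, above 0 in 5 libraries with 42 reads in all, and MIR3170 and MIR6809, each above 0 in 13 libraries with 79 and 90 reads, and no row lay just outside it. Every member had values above 0 in at least 4 of the 8 groups, so none was a member through a single group.

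HEK293T is a human embryonic kidney line carrying the SV40 large T antigen. The cells stably expressed APEX2, an engineered peroxidase that biotinylates nearby molecules, fused to 1 of 4 targeting constructs, named Lyn11, Lck, CD28 and PDGFR. The series' design text places Lyn11 and Lck inside the membrane and CD28 and PDGFR outside. Biotin-phenol was applied for 30 min, then hydrogen peroxide at 1 mM was present during 1 min, and biotinylated RNA was recovered on streptavidin beads. There were 4 labeled and 4 control libraries for Lyn11, and 3 labeled and 3 control libraries for each of Lck, CD28 and PDGFR, all from cells carrying the construct named. The labels give the same reagents for the controls, which the design text calls unlabeled, and the step left out for them is not given in the sources used here. The 9 genes listed as typical of HEK293T were all in the table. Among markers of other tissues, CD3E, CD14, LUM and EPCAM had at most 58 reads in any library, while COL1A1 had 564 to 2367.

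A miRNA gene is transcribed as part of a longer RNA, and most human miRNA genes lie in introns of protein-coding or long noncoding hosts. Drosha and DGCR8 cut the hairpin out of that RNA in the nucleus, exportin-5 carries it to the cytoplasm, and Dicer trims it to a mature strand of 22 or so bases that Argonaute proteins hold against messenger RNAs. Pairing rests mainly on the seed, bases 2 to 8 of the mature strand. Reads over a hairpin can come from the host's primary RNA, the intron or the precursor, and these cannot be told apart in the deposited values, which are not a measure of the mature miRNAs.

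RefSeq (GRCh38.p14) had mature sequences for 235 of the 255 genes, 329 sequences with 308 distinct seeds. Those printed here belong to genes whose differences the results turn on, and capitals mark the seed. MIR106B, MIR93 and MIR25 lie in 1 intron of MCM7, and the main strands of MIR106B and MIR93 share the seed AAAGUGC.
hsa-miR-106b-5p: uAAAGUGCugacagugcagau
hsa-miR-93-5p: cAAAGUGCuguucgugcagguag
hsa-miR-25-3p: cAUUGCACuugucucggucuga
hsa-miR-148b-3p: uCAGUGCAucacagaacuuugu
hsa-miR-365a-3p: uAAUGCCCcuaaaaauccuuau
hsa-miR-4434: aGGAGAAGuaaaguagaa
hsa-miR-3680-5p: gACUCACUcacaggauugugca
hsa-miR-6077: gGGAAGAGcuguacggccuuc
hsa-miR-645: uCUAGGCUgguacugcuga
hsa-miR-554: gCUAGUCCugacucagccagu
hsa-miR-4512: cAGGGCCUcacuguaucgccca

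Shared seeds were uncommon among the members. In all, 18 seeds were carried by at least 2 members. Among them were GAGGUAG in MIR98, MIRLET7D and MIRLET7F1, GCUACAU in MIR221 and MIR222, ACAUUCA in MIR181A2 and MIR181B2, and both arms of the copies MIR3680-1 and MIR3680-2. Hairpins with a RefSeq sequence (198) had a median GC content of 51.05%, between 21.05% and 86.36%.

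The members were mostly intronic. Of the 255, 202 (79.2%) lay in an intron of a gene on the same strand, 3 (1.18%; MIR3605, MIR6079 and MIR5010) overlapped an exon of one, 29 (11.4%) overlapped a gene on the opposite strand only, and 21 (8.24%) were intergenic. Among all 1881 miRNA genes of GENCODE 29 the shares were 50.8%, 16.6%, 12.2% and 20.3%. Of the intergenic members, 8 lay within 1000 bases of another gene. The 205 intragenic members had 188 distinct hosts in the table, 163 of them protein-coding; where several genes contained a hairpin, the host with the highest mean log2 FPKM was used. The strandedness of the libraries and the counting are not given in the sources used here, so reads of genes overlapping on opposite strands cannot be told apart.

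Hairpins carried few reads. Whole reads were recovered from the deposited values, and a member averaged 1.615 to 480.8 reads per library, with a median of 11.35. The mean was at least 10 reads for 150 members, and 47 had reads in all 26 libraries. Library totals were 19.52 to 34.83 M (1e6) reads for the inside constructs and 11.34 to 16.26 M for the outside constructs, so depth and side cannot be told apart. The 4 genes MIR3648-1, MIR3648-2, MIR3687-1 and MIR3687-2, copies that lie in the spacer of ribosomal RNA precursors, held 22654 of the members' 122310 reads (18.5%). Their reads may be split between near-identical copies, and their sum was 7.31 to 229 RPM (reads per 1e6 library reads) in Lyn11 labeled libraries against 19.9 to 68.6 in Lyn11 controls, with 3728 reads of MIR3687-1 in Lyn11 labeled replicate 2 alone.

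Members without a read marked out single libraries. CD28 labeled replicate 2 had 118 members at 0 reads, against 14 and 31 in the other CD28 labeled libraries and 15 to 64 in the CD28 controls. PDGFR control replicate 2 had 100, against 34 to 51 in the PDGFR labeled libraries and 35 and 47 in the other PDGFR controls. In Lck, 1 to 6 members were at 0 in labeled libraries and 0 to 5 in controls. Over all 25745 genes the same libraries stood out, so this was not particular to miRNA genes. CD28 labeled replicate 2 had 3158 genes at 0 reads, against 176 and 794 in the other CD28 labeled libraries. PDGFR control replicate 2 had 3031, against 1120 and 1223 in the other PDGFR controls. The medians over members in CD28 and PDGFR are therefore given with and without these libraries.

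**Figure D1:**
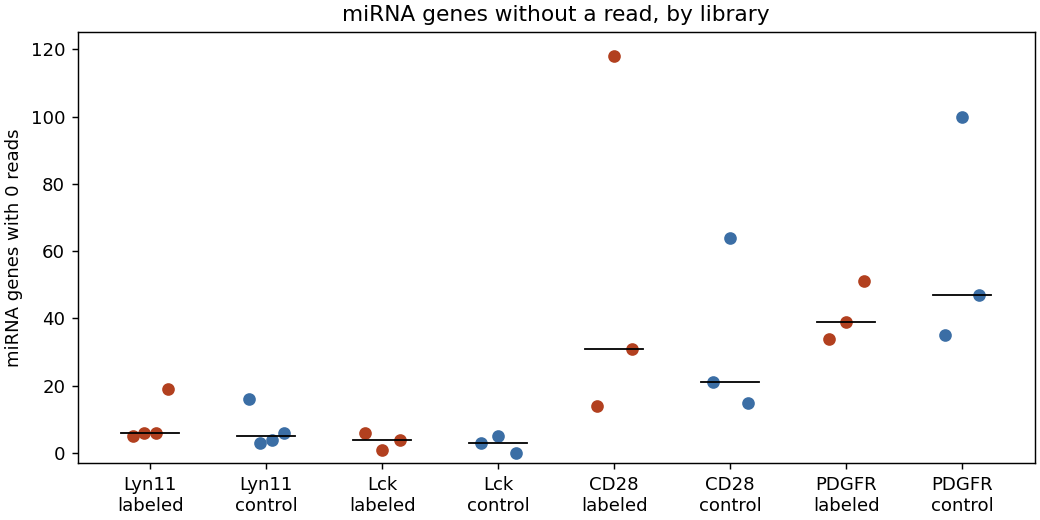
Number of the 255 miRNA genes with 0 reads in each library, by construct, labeled left of control; points are libraries and lines are group medians. CD28 labeled replicate 2 (118) and PDGFR control replicate 2 (100) stand above all the other libraries.

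Levels of the intronic hairpins were spread widely around those of their hosts. Per kilobase, 91 of 205 members had more reads than the exons of their host, and the median log2 ratio of member over host was -0.15, between -6.08 for MIR6728 in ENO1, a glycolytic enzyme and a pair named after its values were seen, and 10.3 for MIR3687-1 in the noncoding FP671120.1. MIR93 stood at a log2 ratio of -4.85 against MCM7, a subunit of the replicative helicase. These are levels averaged over all 26 libraries, with no test.

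The first question the design poses is whether a hairpin was enriched or depleted by labeling. Each construct's labeled libraries were compared with its controls by limma on the deposited log2 values of 22284 genes, and a gene was called at a Benjamini-Hochberg adjusted p under 0.05 over all of them. The 255 members are given by construct. In Lyn11 0 members rose or fell by limma, where 0.579% of all genes were called (0.53% higher, 0.0494% lower). An unadjusted limma p under 0.05 was reached by 9 members (3.53%, against 5.65% of all genes), and limma voom on the recovered reads called 0. In Lck 0 members rose or fell by limma, where 0.794% of all genes were called (0.758% higher, 0.0359% lower). There, 5 members were at an unadjusted limma p under 0.05 (1.96%, against 6.40% of all genes), and voom called 0. With weights per construct Lck called 12 members and Lyn11 1, and with each construct fitted alone Lck called 6 and Lyn11 3. Here and below, counts under alternative settings come without the share over all genes or pairs. They describe how the calls depend on the settings and nothing particular to miRNA genes. The largest Lyn11 and Lck differences belonged to MIR6077, described further on.

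In CD28, 0 members rose and 2 fell, 0.784% of members where 0.476% of all genes were called (0.175% higher, 0.301% lower). At an unadjusted limma p under 0.05 there were 47 members (18.43%, against 13.54% of all genes). MIR3680-1, in an intron of the pseudogene SMG1P3 at chr16:21506049-21506135 on the minus strand, had 10, 8 and 4 reads in CD28 labeled libraries against 42, 22 and 25 in CD28 controls. The groups did not overlap. The difference was -2.09 ± 0.28 log2 (SE; limma adjusted p = 0.00116). MIR3680-2, its copy, taken up after these values were seen and lying at chr16:29599179-29599265, had 18, 12 and 8 reads in CD28 labeled libraries against 51, 22 and 23 in CD28 controls, a difference of -1.40 ± 0.52 that was not called (limma adjusted p = 0.239). Since the copies carry the same mature strands, their reads may be split, and summed over both copies they came to 0.80 to 1.85 RPM in CD28 labeled libraries against 3.88 to 6.96 in CD28 controls. The groups of the summed reads did not overlap either.

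MIR1254-1, in an intron of CCAR1, a regulator of cell cycle and apoptosis, had 28, 33 and 23 reads in CD28 labeled libraries against 58, 55 and 53 in CD28 controls, groups that did not overlap. It fell by 1.14 on the log2 scale (SE 0.24; limma adjusted p = 0.0322). Both CD28 calls were lost when CD28 was fitted alone and with voom, which called 0. The count was 10 without CD28 labeled replicate 1, 5 without labeled replicate 3, and 1 without CD28 labeled replicate 2, control replicate 1 or control replicate 3.

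Beyond the calls, the CD28 members lay lower as a body. The median difference was -0.46 log2 over the 255 members, with 78 above 0, against 0.03 over all genes tested. Without CD28 labeled replicate 2 the median was -0.02 with 125 above 0, against 0.07 over all genes. Nested genes of any type had a similar median. Over all 2481 genes nested on the same strand in another gene, the median of the nested gene minus its host was -0.43 in CD28, and it was -0.50 over the 198 miRNA genes with a tested host. Without CD28 labeled replicate 2 these medians were -0.18 and -0.20.

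In PDGFR, 3 members rose and 6 fell, 3.53% of members where 2.13% of all genes were called (1.37% higher, 0.758% lower). At an unadjusted limma p under 0.05 there were 72 members (28.24%, against 14.05% of all genes). The median difference over members was 0.10 log2, and -0.10 without PDGFR control replicate 2. Fitted on PDGFR alone 1 member was called, with weights per construct 2, and with voom 0. The weights were 0.602 for PDGFR and 2.65 for Lck. A lower weight stands for a wider spread, so the errors printed for PDGFR, from a spread shared by all constructs, may be too small. The count was 21 without PDGFR control replicate 1, 19 without PDGFR control replicate 3, and 14 without CD28 labeled or control replicate 2.

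MIR93 had the largest rise. It had 9, 25 and 11 reads in PDGFR labeled libraries against 0, 0 and 0 in PDGFR controls, and the groups did not overlap. Against a floor of 3 reads over the control group it was 15.3-fold higher in PDGFR labeled libraries, with the labeled reads taken as exact. The lower limit of the read ratio at 0.95 confidence was 11.95-fold, which covers counting error only. The fitted difference of 4.25 ± 0.68 log2 (SE; limma adjusted p = 0.00167) depends on the authors' prior count. MIR5093, antisense to GSE1, and MIR1207, in the noncoding PVT1, rose by 3.32 and 1.63 log2 (limma adjusted p = 0.0425 and 0.0437), and each was called in 14 of 36 alternative settings.

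The 6 that fell in PDGFR were MIR548AQ, MIR2052, MIR148B, MIR3165, MIR1262 and MIR4482. MIR548AQ, in IGF2BP2, an RNA-binding protein, had 2, 3 and 0 reads in PDGFR labeled libraries against 41, 47 and 20 in PDGFR controls (-4.08 ± 0.98 log2; limma adjusted p = 0.0333). MIR2052, in its own noncoding host MIR2052HG, had 1, 0 and 3 reads in PDGFR labeled libraries against 39, 31 and 13 in PDGFR controls (-3.87 ± 0.78 log2; limma adjusted p = 0.00994). Neither pair of groups overlapped. MIR4482, an intergenic member at chr10:104268336-104268405, had 5, 1 and 2 reads in PDGFR labeled libraries against 15, 11 and 24 in PDGFR controls (-2.40 ± 0.39 log2; limma adjusted p = 0.00179). It was the only intergenic member called in a single construct. MIR3165, in the spindle protein NUMA1, and MIR1262, in the Wnt carrier WLS, fell by 3.10 and 2.43 log2 (limma adjusted p = 0.0371 and 0.0466), and were called in 28 and 12 of 36 alternative settings.

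MIR3165 gave unlike values in PDGFR and Lyn11. It had 1, 6 and 0 reads in PDGFR labeled libraries against 15, 12 and 30 in PDGFR controls, yet 4, 7, 5 and 6 reads in Lyn11 labeled libraries against 2, 2, 3 and 0 in Lyn11 controls. Its mean difference over the 4 constructs was 0.03 log2 and was not called.

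**Figure D2:**
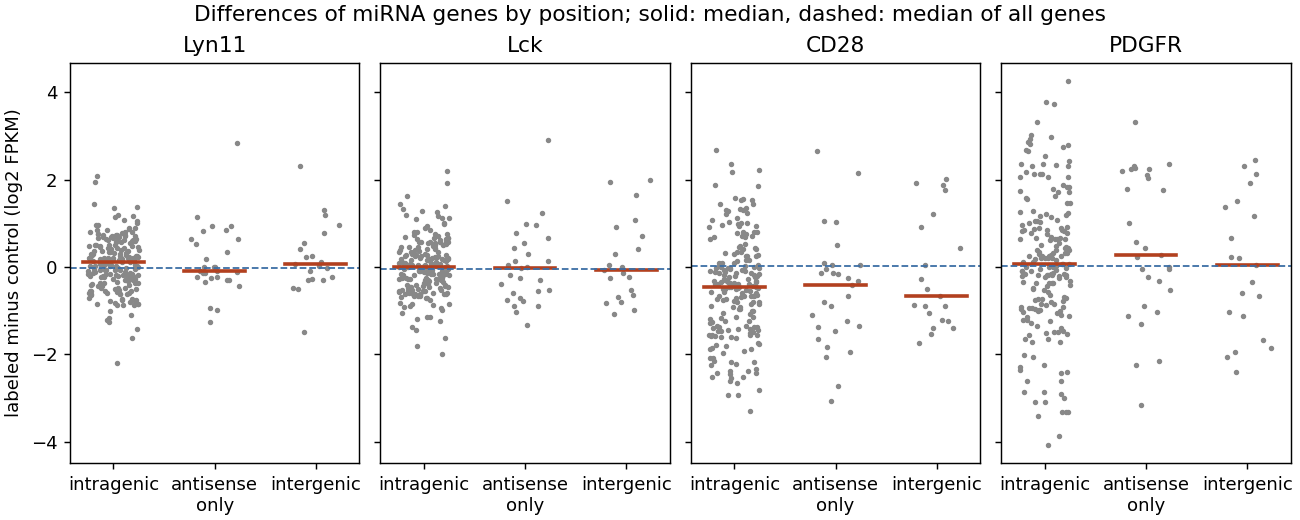
Labeled minus control difference in log2 FPKM for each miRNA gene by construct, split into 205 intragenic, 29 antisense-only and 21 intergenic genes; solid lines are medians of the miRNA genes and the dashed line is the median of all genes tested. All 3 classes lie below the dashed line in CD28, and the spread is wider in CD28 and PDGFR than in Lyn11 and Lck.

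The members' medians by position were as follows. In CD28 the median difference was -0.45 over intragenic, -0.42 over antisense-only and -0.67 over intergenic members, and in PDGFR it was 0.08, 0.28 and 0.05. Without CD28 labeled replicate 2 the CD28 medians of intragenic, antisense-only and intergenic members were -0.04, -0.12 and 0.09, and without PDGFR control replicate 2 the PDGFR medians were -0.10, 0.26 and -0.42. In Lyn11 it was 0.12, -0.08 and 0.06, and in Lck 0.00, -0.02 and -0.07. The classes hold 205, 29 and 21 genes, and the difference between classes was given no test.

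The average of the 4 labeled minus control differences had the smallest error and made the most calls. On it, 11 members rose and 9 fell, 7.84% of the members where 7.37% of all genes were called (4.29% higher, 3.08% lower), so the members changed about as often as genes at large. Voom called 16. By class, 8 rose and 7 fell of 205 intragenic members, 2 rose and 2 fell of 29 antisense-only members, and 1 rose of 21 intergenic members. In 16 of the 20 the difference had the same sign in all 4 constructs, in 3 it did so in 3 constructs and in MIR93 in 2. Selection on the mean of the same 4 differences favors shared signs. The count is therefore a description and no test of agreement between constructs.

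**Figure D3:**
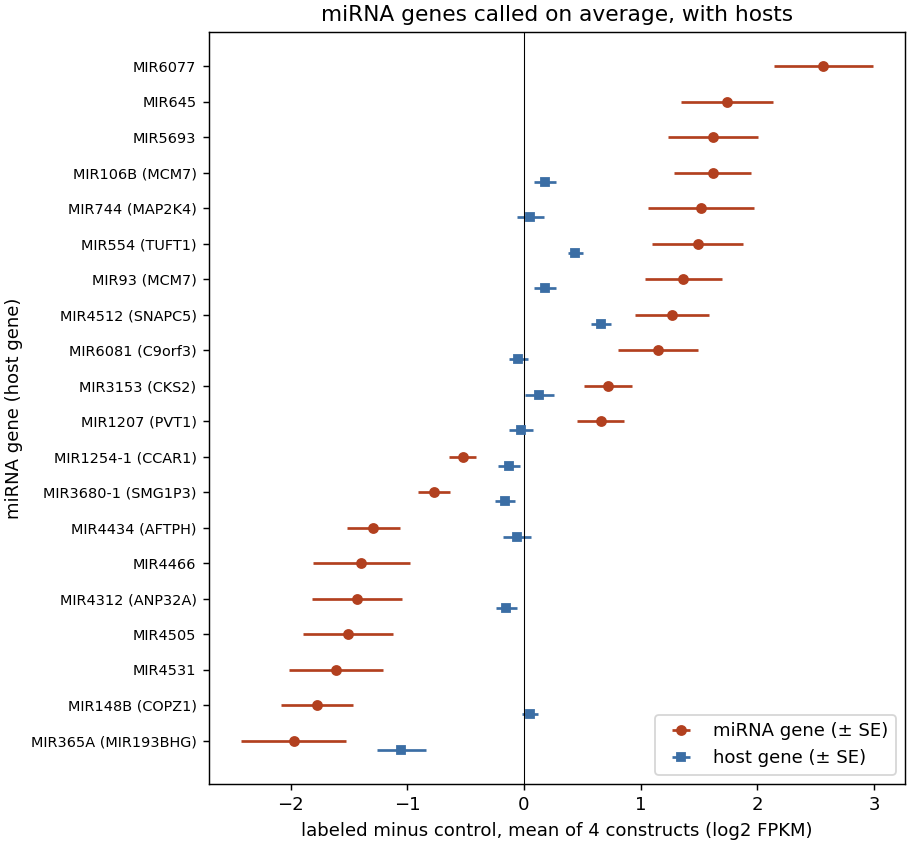
Mean of the 4 labeled minus control differences (log2 FPKM, ± SE) for the 20 miRNA genes called on that mean, circles, with the tested host gene of 14 of them, squares. Circles spread between -1.97 and 2.57, while hosts other than MIR193BHG, SNAPC5 and TUFT1 lie near 0.

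MIR6077 rose most. The gene lies at chr1:148388282-148388363 on the plus strand, opposite the noncoding LINC01138. It had 51, 32, 41 and 18 reads in Lyn11 labeled libraries against 10, 3, 2 and 3 in Lyn11 controls, and 34, 47 and 43 in Lck labeled libraries against 3, 4 and 6 in Lck controls. It had 37, 29 and 27 reads in CD28 labeled libraries against 2, 16 and 5 in CD28 controls, and 28, 36 and 53 in PDGFR labeled libraries against 0, 29 and 17 in PDGFR controls. In log2 FPKM the groups overlapped in PDGFR and not in Lyn11, Lck or CD28. The mean difference was 2.57 ± 0.43 log2 (SE; limma adjusted p = 0.00048), 2.85, 2.91, 2.15 and 2.35 in Lyn11, Lck, CD28 and PDGFR.

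Its surroundings bear on that value. RNU1-13P, a pseudogene of the U1 spliceosomal RNA, lies 127 bases away on the opposite strand and differed by 2.41 ± 0.43 log2 (limma adjusted p = 0.00104), while LINC01138 differed by 0.14 (limma adjusted p = 0.637). U1 copies are near-identical, so reads there are uncertain, and whether reads of U1 copies enter the value of MIR6077 was not tested.

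MIR645 was the intergenic member that rose. It lies at chr20:50585786-50585879 on the plus strand, 545 bases beyond PTPN1, a tyrosine phosphatase, and 229 bases from RIPOR3 on the opposite strand. It had 17, 24, 17 and 23 reads in Lyn11 labeled libraries against 15, 6, 12 and 5 in Lyn11 controls, and 16, 33 and 22 in Lck labeled libraries against 2, 9 and 11 in Lck controls. It had 16, 16 and 13 reads in CD28 labeled libraries against 5, 0 and 11 in CD28 controls, and 14, 17 and 14 in PDGFR labeled libraries against 10, 0 and 6 in PDGFR controls. Labeled libraries were higher in all 4 constructs on average, and in log2 FPKM only the CD28 groups touched. The mean difference was 1.74 ± 0.40 log2 (SE; limma adjusted p = 0.00777), beside 1.77 ± 0.18 for RIPOR3 (limma adjusted p = 1.52e-06) and 0.14 for PTPN1 (limma adjusted p = 0.203).

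Of the other antisense-only members called, 1 shared its call with the gene on the opposite strand. MIR5693 rose by 1.62 ± 0.38 log2 (limma adjusted p = 0.0105), and SERPINE3, a serpin gene on the other strand, rose by 1.00 ± 0.17 (limma adjusted p = 0.000512). MIR4505 fell by 1.51 and MIR4466 by 1.39 log2 (limma adjusted p = 0.0182 and 0.0467). ELMSAN1 and ARID1B, the genes opposite them, differed by 0.09 and 0.05 log2 and were not called. AL355297.2, on the strand of MIR4466 and 596 bases from it, differed by -1.19 ± 0.41 log2 (limma adjusted p = 0.0854) and was not called either.

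The design also allows each hairpin to be set against its host. Of the 14 called members with a tested host, 11 had the sign of the host, 3 had a host that was itself called, and 11 had a host that was not. On the average, called or not, 125 of 198 miRNA pairs shared the sign, and 1465 of all 2481 nested pairs did. Gene and host were both called in 3 of the miRNA pairs and in 26 of all nested pairs. Difference of member and difference of host were then compared within libraries by limma on the log2 ratio of nested gene to host, over all 2481 nested pairs, with 198 miRNA pairs. On the average, 1 miRNA pair was higher and 2 lower than the host, 1.515% of pairs where 2.82% of all nested pairs were called (1.05% higher, 1.77% lower). The count of 3 became 11 without PDGFR control replicate 1, 7 without PDGFR labeled replicate 1, and 5 without Lyn11 or CD28 labeled replicate 3.

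MIR106B was the member that rose beyond its host. It lies at chr7:100093993-100094074 on the minus strand in MCM7 and belongs to the MIR106B, MIR93 and MIR25 cluster, a relative of the oncogenic mir-17 cluster. It had 5, 14, 15 and 17 reads in Lyn11 labeled libraries against 14, 7, 7 and 4 in Lyn11 controls, and 19, 16 and 5 in Lck labeled libraries against 3, 4 and 5 in Lck controls. It had 12, 16 and 16 reads in CD28 labeled libraries against 4, 1 and 3 in CD28 controls, and 13, 22 and 15 in PDGFR labeled libraries against 15, 0 and 3 in PDGFR controls. The groups were apart in log2 FPKM in CD28 and PDGFR and overlapped in Lyn11 and Lck.

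On the average MIR106B rose by 1.62 ± 0.33 log2 (SE; limma adjusted p = 0.00308), MCM7 differed by 0.18 ± 0.09 (limma adjusted p = 0.327), and MIR106B minus MCM7 was 1.44 (limma adjusted p = 0.0122, and 0.0574 with a replicate block). MIR93 rose by 1.36 ± 0.33 (limma adjusted p = 0.0124) on the average, a call lost with a prior count of 3 and with voom (limma adjusted p = 0.0726 and 0.0629). It was above 0 in Lck and PDGFR. It had 4, 7 and 7 reads in Lck labeled libraries against 0, 0 and 3 in Lck controls. In Lyn11 it had 8, 3, 4 and 0 reads in labeled libraries against 10, 7, 3 and 2 in controls, and in CD28 4, 11 and 7 in labeled libraries against 23, 3 and 5 in controls, differences of -0.50 and -0.22 log2.

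The third hairpin of the intron was not called, and its difference from the other two was not tested. MIR25, 125 bases from MIR93, had the most reads of the 3, between 0 and 65 per library, and its mean difference was -0.64 ± 0.46 log2 (limma adjusted p = 0.506). Its groups overlapped in all 4 constructs, and CD28 labeled replicate 2 had 0 reads of it beside 29 and 33 in the other CD28 labeled libraries. On average MIR93, MIR106B and MIR25 had 6.0, 9.81 and 32.5 reads per library.

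**Figure D4:**
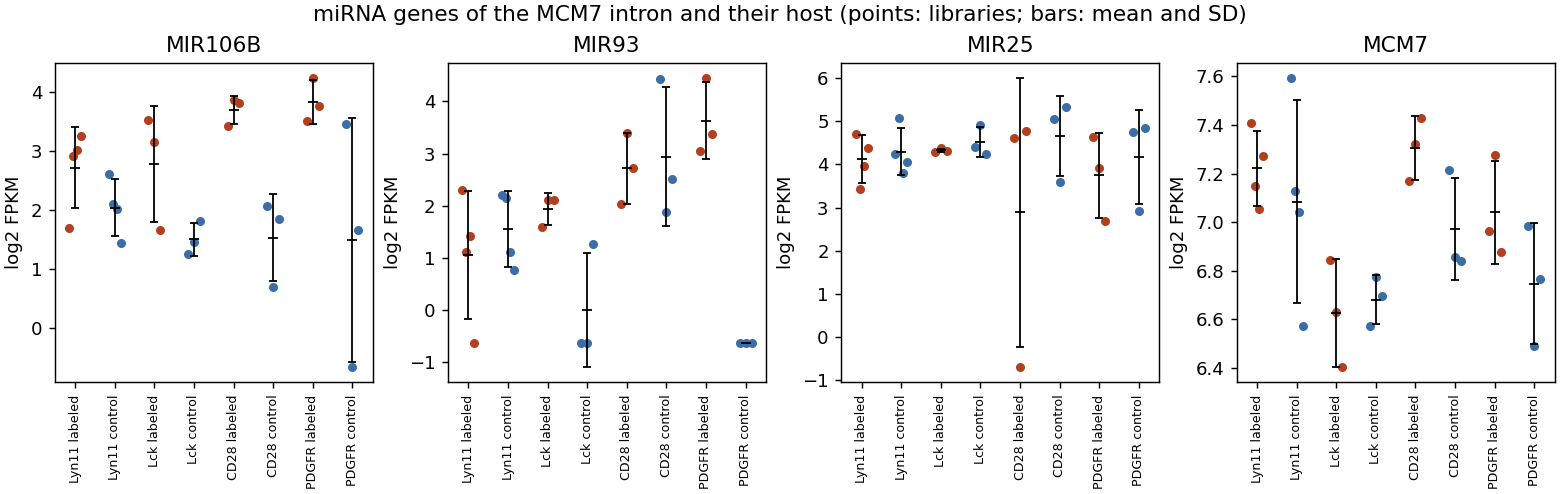
log2 FPKM of MIR106B, MIR93, MIR25 and their host MCM7 in each library, by construct, labeled left of control; points are libraries and bars are the group mean and SD, with a separate vertical scale in each panel. All 3 PDGFR controls of MIR93 sit at the value of 0 reads, and MCM7 varies by little over 1 log2 unit in all 26 libraries.

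MIR148B fell, and its host was not called. It lies at chr12:54337216-54337314 on the plus strand in COPZ1, a coatomer subunit. It had 3, 3, 4 and 6 reads in Lyn11 labeled libraries against 20, 15, 8 and 13 in Lyn11 controls, and 6, 3 and 6 in Lck labeled libraries against 7, 10 and 6 in Lck controls. It had 0, 0 and 7 reads in CD28 labeled libraries against 4, 3 and 6 in CD28 controls, and 0, 0 and 2 in PDGFR labeled libraries against 8, 12 and 15 in PDGFR controls. The groups were apart in Lyn11 and PDGFR. The mean difference was -1.77 ± 0.31 log2 (SE; limma adjusted p = 0.000858), that of COPZ1 0.05 ± 0.07 (limma adjusted p = 0.761), and MIR148B minus COPZ1 was -1.83 (limma adjusted p = 0.00422). AC078778.2, a noncoding gene that overlaps the hairpin on the same strand, may share its reads. It differed by -0.32 ± 0.14 log2 (limma adjusted p = 0.215) and was not called.

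MIR4434 likewise fell beyond AFTPH, a protein of clathrin-coated vesicles. It had 5, 6, 5 and 8 reads in Lyn11 labeled libraries against 33, 6, 8 and 15 in Lyn11 controls, and 7, 5 and 13 in Lck labeled libraries against 13, 19 and 12 in Lck controls. It had 4, 10 and 4 reads in CD28 labeled libraries against 16, 42 and 13 in CD28 controls, and 16, 9 and 21 in PDGFR labeled libraries against 48, 39 and 45 in PDGFR controls. In log2 FPKM the groups were apart in Lck, CD28 and PDGFR. The mean difference was -1.29 ± 0.22 log2 (SE; limma adjusted p = 0.000752), that of AFTPH -0.06 (limma adjusted p = 0.856), and MIR4434 minus AFTPH was -1.23 (limma adjusted p = 0.00868).

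In 3 of 198 pairs member and host were both called on the average, each in the same direction, beside 26 of all 2481 nested pairs. MIR365A and its noncoding host MIR193BHG both fell. MIR365A, at chr16:14309285-14309371, had 5, 0, 3 and 2 reads in Lyn11 labeled libraries against 4, 13, 7 and 5 in Lyn11 controls, and 0, 2 and 2 in Lck labeled libraries against 8, 10 and 3 in Lck controls. It had 1, 0 and 4 reads in CD28 labeled libraries against 20, 0 and 6 in CD28 controls, and 0, 0 and 0 in PDGFR labeled libraries against 12, 16 and 2 in PDGFR controls. In PDGFR, against a floor of 3 reads over the labeled group, it was 9.80-fold lower in labeled libraries, with the control reads taken as exact. The upper limit of the labeled over control read ratio at 0.95 confidence was 0.1335.

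The mean difference of MIR365A was -1.97 ± 0.45 log2 (SE; limma adjusted p = 0.00822) and that of MIR193BHG -1.05 ± 0.21 (limma adjusted p = 0.0023). The host had more reads, 34, 70 and 45 in CD28 labeled libraries against 105, 91 and 109 in CD28 controls, groups that did not overlap. In PDGFR it had 43, 80 and 24 reads in labeled libraries against 158, 51 and 125 in controls, and those did.

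MIR4512 and SNAPC5, a subunit of the complex that starts transcription of small nuclear RNA genes, both rose, by 1.27 ± 0.31 (limma adjusted p = 0.0143) and 0.66 ± 0.08 log2 (limma adjusted p = 1.93e-05). MIR4512 had 48, 45 and 30 reads in Lck labeled libraries against 2, 12 and 14 in Lck controls, and 34, 48, 44 and 57 in Lyn11 labeled libraries against 36, 8, 18 and 19 in Lyn11 controls. In log2 FPKM the groups were apart in these 2 constructs and overlapped in CD28 and PDGFR.

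MIR554 and TUFT1, the tuftelin gene, both rose, by 1.49 ± 0.39 (limma adjusted p = 0.0204) and 0.44 ± 0.06 log2 (limma adjusted p = 0.000119). AL365436.2, a noncoding gene on the same strand whose span contains the hairpin and which may share its reads, rose by 1.39 ± 0.27 (limma adjusted p = 0.002). MIR554 had 34, 37 and 40 reads in Lck labeled libraries against 9, 11 and 12 in Lck controls, but 11, 10 and 8 reads in CD28 labeled libraries against 10, 19 and 8 in CD28 controls. Its CD28 difference was -0.40 log2, below 0 where the other 3 were above.

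**Figure D5:**
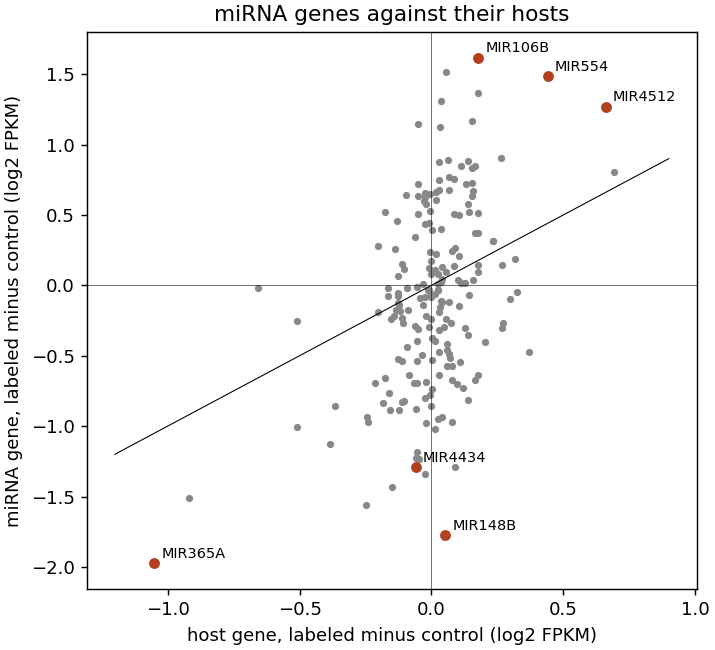
Mean labeled minus control difference (log2 FPKM) of 198 miRNA genes, vertical, against that of their hosts, horizontal; the line marks equal differences. Named points are pairs in which the miRNA gene differed from its host (MIR106B, MIR148B, MIR4434) or both were called (MIR365A, MIR4512, MIR554), and the hosts spread far less than the hairpins.

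Across the 198 pairs the difference of the hairpin and that of its host correlated at Pearson 0.44 on the average, and at 0.33 in Lyn11, 0.49 in Lck, 0.02 in CD28 and 0.24 in PDGFR. Over all 2481 nested pairs it was 0.29 on the average. The points are genes of the same libraries, and hairpin and host share library size, so these values are a description with no test. Of the 182 hosts tested, 7 rose and 3 fell on the average, 5.495%, where 7.37% of all genes were called. Those that rose were UMPS, BCL2L14, TUFT1, TIAM2, PTPRJ, B3GNT2 and SNAPC5. Those that fell were 3 noncoding RNAs, AL031428.1, MIR193BHG and MIR222HG, by 0.92, 1.05 and 0.51 log2 (limma adjusted p = 0.00451, 0.0023 and 0.0348).

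In single constructs few pairs parted. Voom was not run on pairs. For Lyn11 and Lck limma called 0 miRNA pairs, where 0.282% and 0.0403% of nested pairs were called. An unadjusted limma p under 0.05 was reached by 5 and 2 of 198 miRNA pairs, and by 68 and 58 of all 2481 nested pairs. In CD28 it called 2, both lower than the host, 1.01% where 1.05% of nested pairs were called (0.202% higher, 0.846% lower). They were MIR4434 minus AFTPH at -2.37 and MIR3680-1 minus SMG1P3 at -1.61 log2. In PDGFR it called 2 higher and 4 lower, 3.03% where 2.58% were called (1.57% higher, 1.01% lower), with MIR93 3.96 above MCM7, MIR1207 1.52 above PVT1, and MIR2052, MIR548AQ, MIR148B and MIR3165 between 3.34 and 4.82 log2 units below their hosts. No CD28 or PDGFR pair was called when that construct was fitted alone.

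The design's 2 sides of the membrane were compared by the inside minus outside difference, the mean of Lyn11 and Lck less the mean of CD28 and PDGFR. Limma called 0 members, where 0.00449% of all genes were called, and voom called 0. At an unadjusted limma p under 0.05 there were 28 members (10.98%, against 6.52% of all genes). The median over members was 0.21 log2 with 149 of 255 above 0, against -0.04 over all genes, and 0.05 without CD28 labeled replicate 2. MIR106B differed by -1.28 ± 0.66 and MIR93 by -1.30 ± 0.66 log2 on this measure (limma adjusted p = 0.756 and 0.755).

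The remaining calls on the average were those of 8 intragenic members. MIR744, in the stress kinase MAP2K4, rose by 1.52, MIR6081 in C9orf3 by 1.15, MIR3153 in CKS2 by 0.72 and MIR1207 in PVT1 by 0.66 log2. MIR4531, intronic in AC243964.2, a host that was not tested, and opposite the poliovirus receptor PVR, fell by 1.61, MIR4312 in ANP32A by 1.43, MIR3680-1 by 0.77 and MIR1254-1 by 0.53 log2. MIR744, MIR6081, MIR1207 and MIR4466 had limma adjusted p of 0.0462, 0.0462, 0.0488 and 0.0467, and they were called in 13, 11, 9 and 13 of 35 alternative settings.

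Genes of well-studied families were partly absent from the table, which held 256 of the 1881 annotated miRNA genes. It held 2 of 6 mir-181 genes and 1 of 5 mir-10 and mir-196 genes. Of 8 mir-15 and mir-16 genes and 6 mir-30 genes it held 0. Outside MCM7 no gene of the listed families was called. Of 15 genes of the mir-17 clusters, 3 were in the table, those of MCM7. Of 12 let-7 and mir-98 genes, regulators of developmental timing, 3 were in the table and 0 were called by limma on the average, with MIRLET7D at 0.14 and MIRLET7F1 at 0.52 log2. MIR181A2 and MIR181B2 were at 0.07 and -0.05, and MIR196A1 in HOXB7 at -0.29. MIR221 had 46 to 84 reads in Lyn11 labeled libraries against 47 to 88 in Lyn11 controls and differed by -0.25 log2 on the average (SE 0.16; limma adjusted p = 0.451), in the host MIR222HG that fell.

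The genes that make and use miRNAs were tested as well. Of the Drosha, DGCR8 and export list 10 of 11 genes were tested, and on the average, where 4.29% of all genes rose and 3.08% fell, SRSF3, a splicing factor that helps Drosha, rose by 0.41 and DDX17, a Drosha helicase, fell by 0.20 log2. Of 15 Dicer and Argonaute genes and 8 turnover genes limma called 0 on the average. Of 22 noncoding hosts listed, 12 were tested, 0 rose and 3 fell beside the same shares over all genes, MIR17HG by 0.46 log2 beside MIR222HG and MIR193BHG. These values compare RNA of labeled and control libraries. In such bulk libraries the labeling of an RNA, its level per cell and the number of cells cannot be told apart.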

How the data were processed

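The deposited table holds log2 FPKM values made by the authors. The submitters' processing notes name the build hg38, HISAT2 2.1.0 and, with no version, edgeR. The counter, the annotation and the strandedness are not given in the sources used here. Identifiers were matched to GENCODE 29 (24075 with version, 1579 without, 91 unmatched). In 3955 genes several libraries shared a lowest value. These floors gave a prior count of 1.00 read scaled to library size, and with exon lengths the values then gave whole reads, to within 0.05 read. Such reads are not independent molecules, so intervals cover counting error only, and a floor leaves out that of the group with reads.

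Sample titles gave the groups. The 22284 genes with log2 above 0 in at least 3 libraries were fitted with limma 3.58.1 in R 4.3.3, with a mean per group and an intensity trend (18 residual degrees of freedom, 20.87 after moderation); no further pseudocount was added. Differences of genes with few reads are pulled toward 0 by the authors' prior count. The same fit was run on log2 nested gene minus host for all 2481 same-strand pairs. The gene fit was first run on simulated reads, with an outcome not given here, and the pair fit was not simulated. Alternatives were a prior count of 3, no filter or a filter of 13 libraries, median centring, quantile normalization, voom on the recovered reads, weights per construct, each construct alone, a replicate block and each library left out. Leaving out both libraries with most genes at 0 reads was added after seeing the data.

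The members and gene lists were chosen with earlier results of these data known. Named members are those called, the 20 with most reads, listed families, called pairs and the 5 nearest the threshold, except where stated. Chromosome 8 sequences were not printed.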

Additional observations from a re-analysis of the deposited data

Results flagged for a closer look

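Among 53 named members, 106 groups of 4 Lyn11 libraries were screened for a library standing apart from the other 3, and 5 did. Chance flags about 1 in 20 groups. MIR1254-1 was low in Lyn11 labeled replicate 3 at 4.21 log2 FPKM (43 reads), and MIR221 was low in the same library at 4.12 (46 reads). MIR5693 was high in Lyn11 labeled replicate 2 at 3.26 (16 reads). In Lyn11 control replicate 2, MIR3170 was at 1.54 (4 reads) and MIR3171 at 0.36 (1 read), while the other 3 controls had 0 reads of either.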

How the results depend on the processing

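The average made 20 calls, within 1.5 times of that under every alternative run, with 14 to 29 when single libraries were left out. Inside minus outside stayed at 0 except for 1 call in a leave-one-out fit (0 to 1). For Lyn11 (0 calls) there was 1 with a prior count of 3, 1 with weights per construct, 3 with the construct alone, 1 without both libraries with most genes at 0 reads, and 0 to 1 leaving out single libraries. For Lck (0) there were 12 with weights, 6 alone and 0 to 1 leaving out single libraries. For CD28 (2) there was 1 with a prior count of 3, median centring, the replicate block or weights, 0 alone or with voom, and 1 to 10 leaving out single libraries. For PDGFR (9) there were 2 with weights, 1 alone, 0 with voom and 6 to 21 leaving out single libraries. Pair counts were 0 for Lyn11 and 0 for Lck except 1 with weights. For CD28 (2) there was 1 pair with a prior count of 3, 0 with the replicate block, weights or the construct alone, and 0 to 10 leaving out single libraries. For PDGFR (6) there were 0 with weights or alone, 10 without both libraries and 5 to 21 leaving out single libraries, and on the average (3) 8 without both libraries and 3 to 11 leaving out single libraries. With the construct alone fewer samples estimate the spread; for the other settings the cause was not tested. No named difference changed sign, but medians did: without PDGFR control replicate 2 the PDGFR median was -0.10 over members (0.10 with it) and -0.13 over pairs (0.05), and without CD28 labeled replicate 2 the average pair median was 0.0023 (-0.08).

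Replicate numbers did not pair the samples: same-numbered labeled and control libraries correlated at -0.288 to 0.166 in their deviations from the group means. With the replicate block PDGFR had 8 calls, the average 17, pairs in PDGFR 7 and pairs on the average 2. MIR106B minus MCM7 was no longer called with the block (limma adjusted p = 0.0574), and MIR93 on the average was not with a prior count of 3 (0.0726) or voom (0.0629). The unfiltered table added no pair fit, since pairs were limited to tested genes, and rescaling and voom were run on gene values only. All of these counts rest on few reads, since the median member had 11.35 reads per library. How depth affects them was not tested.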

Other observations

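Several hairpins had reads in some libraries of a group and none in others; these were picked out after their values were seen and were not called. MIR3171 had 0, 16 and 6 reads in CD28 labeled libraries against 0, 18 and 0 in CD28 controls, and at most 1 read in each library of the other constructs. MIR3170 had 20, 0 and 14 reads in PDGFR labeled libraries against 0, 0 and 0 in PDGFR controls, and MIR6809 had 14, 0 and 9 against 0, 0 and 0. MIR1244-4 had 18, 0 and 29 reads in PDGFR labeled libraries against 0, 0 and 0 in PDGFR controls. Its host BCL2L14 rose by 0.69 ± 0.16 log2 on the average (SE, limma adjusted p = 0.00895). MIR1244-4 is 1 of 3 MIR1244 genes in the table, and reads may be split between these copies. Their sum was 2.77 to 5.12 RPM in PDGFR labeled libraries against 1.54 to 4.14 in PDGFR controls, and the groups overlapped.

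MIR4419A, in the noncoding AL031428.1 that fell, missed the threshold narrowly. It had 0, 0 and 0 reads in PDGFR labeled libraries against 20, 31 and 0 in PDGFR controls, and its mean difference was -1.51 ± 0.47 log2 (SE; limma adjusted p = 0.0513). Among the members with most reads, MIR3939 differed by -0.06 ± 0.21 and MIR590, in the translation factor gene EIF4H, by -0.03 ± 0.23 log2 on the average (limma adjusted p = 0.924 and 0.966). GC content of the hairpin and mean difference had a Pearson correlation of -0.00014 over 198 hairpins, a description across genes of the same libraries.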
